A study of Mus musculus with 4 samples.

Results

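The intestinal identity transcription factors described here are 8 genes, Cdx1, Cdx2, Hnf4a, Hnf4g, Klf4, Klf5, Gata6 and Sox9, taken by gene symbol from the 22632 genes of the deposited expression table. All 8 had a row and all 8 were above 1 RPKM (reads corrected for gene length and sequencing depth) in every library. RNA had been sequenced from organoids of mouse small intestine, epithelial cultures started from whole crypts, 24 hours after seeding. There were 4 groups with 1 library each. The Yap+/- organoids came from Yap+/fl;VillinCre mice, with 1 deletable Yap allele. The Yap-/- organoids came from Yapfl/fl;VillinCre mice, in which the Villin promoter drives Cre in the intestinal epithelium and both Yap alleles can be deleted. The YapTg line has wild-type Yap as a transgene, switched on by doxycycline through a reverse transactivator that itself depends on Cre, and 1 library was made without the drug and 1 with it. The labels name neither the promoter of that Cre nor the number of animals behind a library, and no library had doxycycline without the transgene, so drug and transgene cannot be told apart. With 1 library per group there was no replicate check and no test. Intervals below are 95% intervals for counting error only.

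As background, CDX1 and CDX2 are homeobox factors that establish and maintain intestinal epithelium, and CDX2 is the factor whose loss lets gut epithelium take on foregut features. HNF4A and HNF4G are nuclear receptors that switch on enterocyte genes for brush border and lipid handling and can stand in for each other in part. GATA6 is a zinc finger factor of gut endoderm, KLF4 and KLF5 are Krüppel-like factors associated with differentiated surface cells and with dividing crypt cells, and SOX9 is a Wnt-dependent factor of the crypt base and of Paneth cells.

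Yap1 followed the labels, with 16.7 RPKM in Yap+/-, 3.35 in Yap-/-, 25.1 in YapTg without and 1039 RPKM in YapTg with doxycycline. Library totals behind the RPKM values lay between 44934170 and 75269003 reads. The epithelial origin of the libraries was checked on marker genes, and the part of the intestine was not. The brush border protein villin, Vil1, was at 208 to 229 RPKM, and the intestinal cadherin gene Cdh17 at 206 to 260 RPKM. Of 12 stromal markers 4 were at 0 in all libraries and the list summed to 2.35 to 5.42 RPKM. The 12 immune markers summed to 5.12 RPKM in Yap+/-, 6.14 in Yap-/-, 8.48 without and 10.3 RPKM with doxycycline. None of 11 endothelial, neural and blood markers reached 1 RPKM.

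Within the YapTg pair 5 of the 8 identity factors stayed near their uninduced level and 3 differed past 2-fold. Hnf4g was 3.25-fold lower and Cdx1 2.13-fold lower with doxycycline, and Klf4 was 5.54-fold higher. Hnf4a, Cdx2, Klf5, Gata6 and Sox9 differed by at most 1.27-fold. Between Yap-/- and Yap+/- organoids 0 of 8 differed past 2-fold. A gene was counted as higher or lower when its RPKM plus a pseudocount of 1 differed at least 2-fold within a pair of which 1 library or both had 1 RPKM or more. By that rule 5.85% of 11108 genes were higher and 5.80% lower with doxycycline, against 1 and 2 of the 8 factors. In the loss pair 0.336% of 10710 genes were higher and 0.570% lower, together 0.906%.

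**Figure D1:**
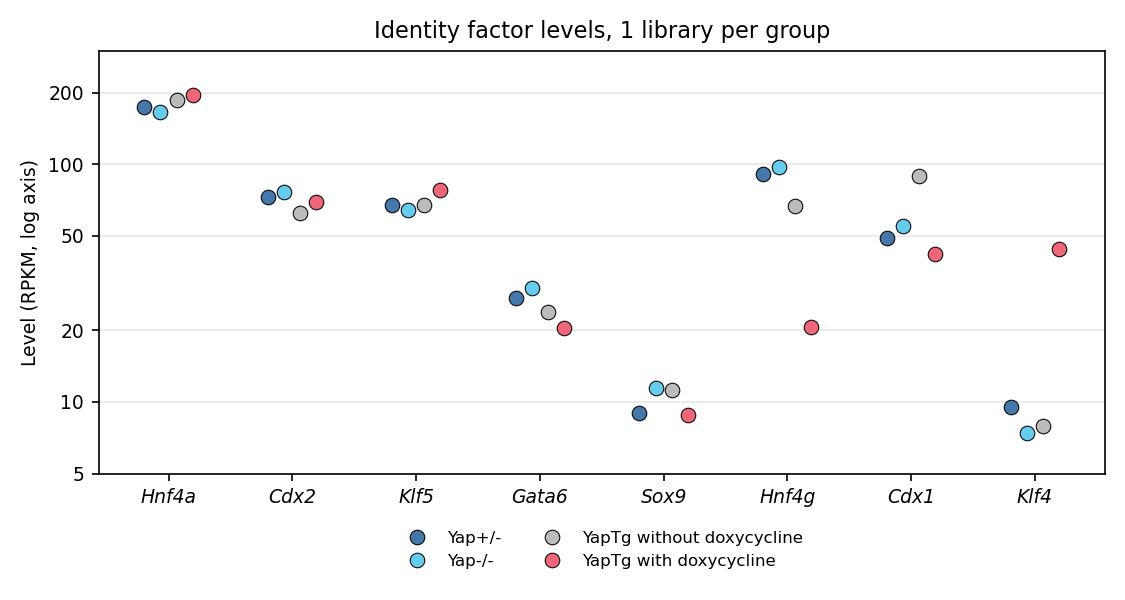
Level of each identity factor in RPKM (log axis) in the 4 libraries, 1 point per library. The induced library stands below the other 3 for Hnf4g (20.6 RPKM) and above them for Klf4 (43.8 RPKM), while Hnf4a, Cdx2, Klf5, Gata6 and Sox9 lie close together.

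Hnf4g was the factor furthest lower. Its level was 90.7 RPKM in Yap+/-, 96.9 in Yap-/-, 66.9 in YapTg without and 20.6 RPKM in YapTg with doxycycline. The induced library was thus lowest and did not come near the other 3. The 3.25-fold difference had a counting interval of 3.12 to 3.39, and its log2 ratio of -1.65 was undercut by 1.97% of genes. Hnf4a, the paralog, was the most abundant of the 8 factors in every library. It stood at 174 RPKM in Yap+/-, 166 in Yap-/-, 187 without and 196 RPKM with doxycycline, and was 1.05-fold higher with induction (interval 1.03 to 1.07). The balance between the paralogs therefore differed. Hnf4g made up 34.3% of the summed Hnf4a and Hnf4g level in Yap+/- and 36.9% in Yap-/- organoids, and 26.4% without and 9.51% with doxycycline. The sum itself was 254 RPKM without and 217 RPKM with doxycycline.

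Klf4 moved the other way. It was at 9.57 RPKM in Yap+/-, 7.39 in Yap-/-, 7.90 in YapTg without and 43.8 RPKM in YapTg with doxycycline. The induced library was 4.58-fold above the highest of the other 3. The difference of 5.54-fold within the YapTg pair had an interval of 5.07 to 6.07, and 98.7% of genes had a smaller log2 ratio than the 2.33 of Klf4. Klf4 was also the factor furthest lower in Yap-/- organoids, 1.30-fold below Yap+/- (interval 1.17 to 1.43), well short of 2-fold. Klf5 stood at 67.3 RPKM in Yap+/-, 64.2 in Yap-/-, 67.6 without and 78.0 RPKM with doxycycline. Its 4 libraries spanned 1.21-fold, and the induced library was the highest of them. Klf4 made up 10.5% of the summed Klf4 and Klf5 level in uninduced organoids and 36.0% in induced ones.

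Cdx1 lay on the same side as Hnf4g within the YapTg pair, but with a different order of libraries. It was at 48.9 RPKM in Yap+/-, 55.2 in Yap-/-, 89.2 in YapTg without and 41.9 RPKM in YapTg with doxycycline. The uninduced library was the one that stood apart, and the induced level was 1.17-fold below that of Yap+/-. The YapTg pair differed 2.13-fold (interval 2.02 to 2.24), while the Yap+/- library, with no induction, was already 1.82-fold below the uninduced YapTg library (1.73 to 1.92). These comparisons share the uninduced library. Cdx2 was at 72.8 RPKM in Yap+/-, 76.0 in Yap-/-, 62.5 without and 69.5 RPKM with doxycycline, a span of 1.22-fold with the induced library inside the range of the others. Cdx1 exceeded Cdx2 in uninduced YapTg organoids and was below it in the other 3 libraries.

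**Figure D2:**
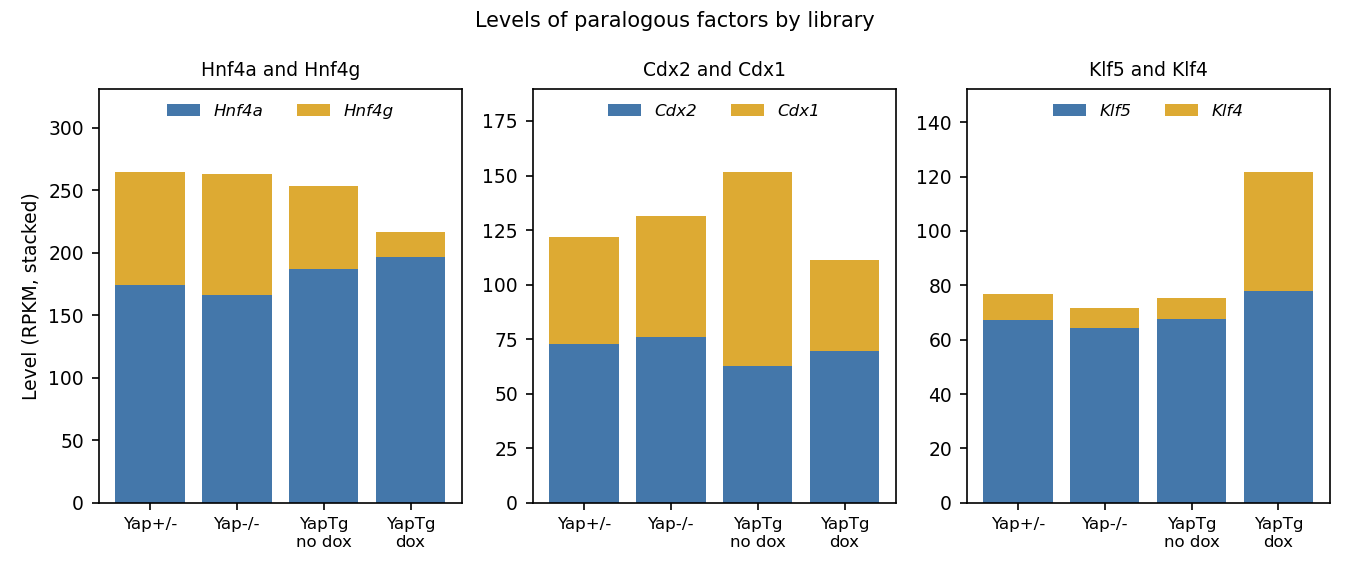
Stacked bars of RPKM for Hnf4a with Hnf4g, Cdx2 with Cdx1 and Klf5 with Klf4, 1 bar per library (dox is doxycycline). The Hnf4g part shrinks to 9.51% and the Klf4 part grows to 36.0% in the induced library, while the RPKM of Hnf4a, Cdx2 and Klf5 differ little between libraries.

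Gata6 and Sox9 stayed closer together. Gata6 was at 27.4 RPKM in Yap+/-, 30.0 in Yap-/-, 23.9 without and 20.5 RPKM with doxycycline, 1.17-fold lower with induction (interval 1.12 to 1.22). The induced library was the lowest and the Yap-/- library the highest. Sox9 was at 8.96 RPKM in Yap+/-, 11.5 in Yap-/-, 11.2 without and 8.81 RPKM with doxycycline. The Yap-/- library and the uninduced YapTg library were the higher ones, 1.28-fold above Yap+/- (interval 1.19 to 1.39) and 1.27-fold above the induced library (1.17 to 1.38). That 1.28-fold was the highest ratio of any of the 8 factors in the loss pair. Crypt genes such as Olfm4 were likewise higher in Yap-/- than in Yap+/- organoids and lower in induced than in uninduced ones; their part in the Sox9 values was not tested.

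**Figure D3:**
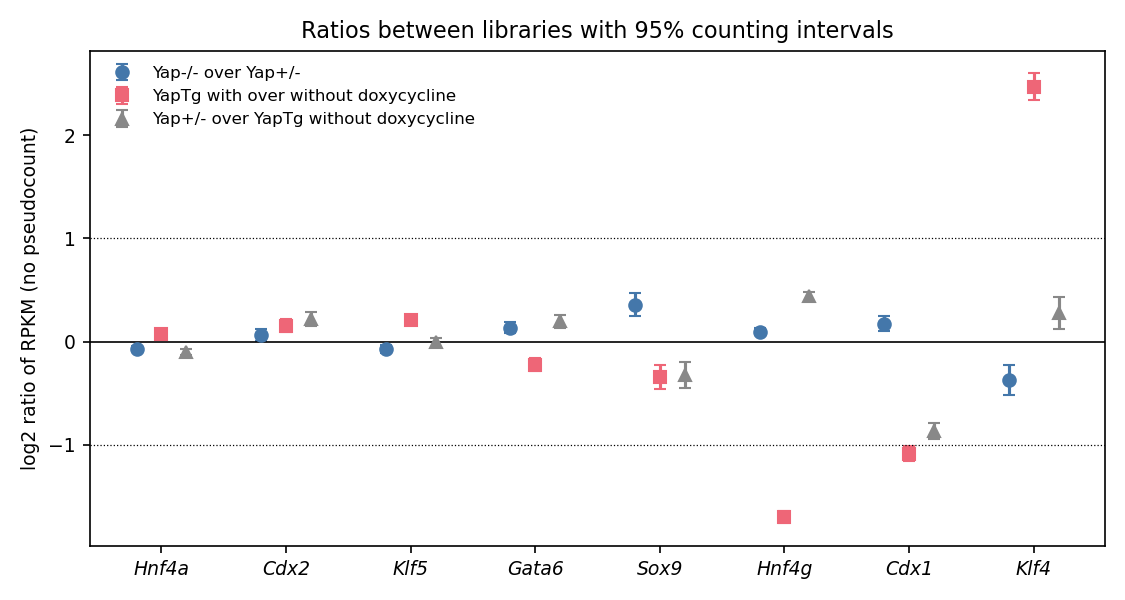
Log2 ratios of RPKM for the 8 factors in the loss pair, the YapTg pair and the pair of reference libraries, with 95% counting intervals as bars and dotted lines at 2-fold. Only Klf4, Hnf4g and Cdx1 pass 2-fold, all in the YapTg pair, and Cdx1 is nearly as far from 0 in the reference pair.

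The loss pair and the YapTg pair share no library. The sign of the log2 ratio was opposite between them for 7 of the 8 factors, all but Cdx2, which was slightly higher in both. Over all genes at 1 RPKM in each pair 64.4% of 10533 had opposite signs, so the factors' count stands beside a high background. The ratios of Hnf4a and Klf5 behind this count were at most 1.15-fold in either pair. The pair of reference libraries, Yap+/- over uninduced YapTg, which differs in line and genotype but has neither full loss nor induction, had 0 of 8 factors past 2-fold, against 1.84% of 10883 genes (1.11% higher, 0.726% lower). Its factor furthest from 0 was Cdx1 (log2 ratio -0.85), followed by Hnf4g, 1.35-fold higher in Yap+/- (log2 0.43), where the median gene stood at -0.11.

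The sequence upstream of the start is shown for Klf4, which was higher with induction, beside 2 factors that were not past 2-fold. RefSeq promoters (GRCm38.p6) are given for 3 of the 8 factors, namely Klf4, Hnf4a with 2 start sites, and Cdx2. Cdx1, Hnf4g, Klf5, Gata6 and Sox9 are not shown, since they had no entry or lay on a chromosome left out of the selection. The stretch from 250 to 51 bases upstream of each start is printed 5′ to 3′, shortened by 38 bases at the downstream Hnf4a start where GENCODE places an exon. Capitals mark matches to the 5 motifs searched on both strands.
Klf4 (chr4:55532526-55532725, minus strand): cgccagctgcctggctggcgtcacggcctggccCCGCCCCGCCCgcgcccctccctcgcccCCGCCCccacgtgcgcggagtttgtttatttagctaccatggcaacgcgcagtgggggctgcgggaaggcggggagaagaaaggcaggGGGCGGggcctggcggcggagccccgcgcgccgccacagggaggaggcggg
Hnf4a, upstream start (chr2:163506607-163506806, plus strand): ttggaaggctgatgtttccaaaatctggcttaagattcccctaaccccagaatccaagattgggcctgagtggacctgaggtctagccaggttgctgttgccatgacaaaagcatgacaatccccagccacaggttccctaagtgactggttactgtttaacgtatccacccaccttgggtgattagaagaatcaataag
Hnf4a, downstream start (chr2:163546943-163547104, plus strand): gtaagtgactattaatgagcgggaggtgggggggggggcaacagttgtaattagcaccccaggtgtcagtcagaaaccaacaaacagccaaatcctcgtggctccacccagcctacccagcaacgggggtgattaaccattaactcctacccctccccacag
Cdx2 (chr5:147307300-147307499, minus strand): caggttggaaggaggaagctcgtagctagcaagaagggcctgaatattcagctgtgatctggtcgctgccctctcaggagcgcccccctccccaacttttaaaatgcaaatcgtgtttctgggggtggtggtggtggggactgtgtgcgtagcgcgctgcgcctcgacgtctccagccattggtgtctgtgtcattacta
The motif searched for TEAD factors, the DNA-binding partners of YAP, was GGAATG. For HNF4 it was CAAAGTCCA. For CDX factors the letters were TTTATG. The GC box, bound by SP and Krüppel-like factors, was searched as GGGCGG. For GATA factors the letters were AGATAA. The Klf4 window held 4 GC boxes, at 217, 212, 189 and 101 bases upstream, of which the first 2 overlap by 1 base. It had 76.5% G and C and 24 CpG dinucleotides, against medians of 51.5% and 4 over 32851 promoter windows of 200 bases. The windows at both Hnf4a starts and the Cdx2 window held none of the 5 motifs, with 47.5%, 54.9% and 56.5% G and C for the upstream Hnf4a, downstream Hnf4a and Cdx2 starts. None of the 4 windows held GGAATG, which 10.7% of all windows hold. GC boxes were in 24.6% of all windows, and the HNF4, CDX and GATA letters in 0.295%, 8.78% and 8.42%. A match is a run of letters and not a measured site.

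Enterocyte products were lower with induction in a larger share than the 8 identity factors were. Of 44 listed products 43 reached 1 RPKM in the YapTg pair, and 26 of them (60.5%) were at least 2-fold lower and 0 higher, with a median log2 ratio of -1.51. The median was -0.07 for the 8 factors and -0.04 for all 11108 genes. Of those 11108 genes 5.80% were at least 2-fold lower and 5.85% higher. Fabp1, the liver-type fatty acid carrier, was at 1938 RPKM without and 106 RPKM with doxycycline. The glucose-6-phosphatase gene G6pc was 18.3-fold lower, the gamma-glutamyl transferase gene Ggt1 10.1-fold lower and the trehalase gene Treh 10.2-fold lower. Set against the other libraries, 26 of 43 products were at least 2-fold below all 3 in induced organoids, as were 4.55% of 11285 genes, and of the 8 factors Hnf4g alone was. Above all 3 others by 2-fold was 1 factor, Klf4, against 5.12% of genes. In these whole organoid libraries fewer cells of a type and less RNA per cell cannot be told apart.

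Not every product was lower by 2-fold. Counted without a threshold, 35 of the 43 products were lower with doxycycline and 8 higher. Vil1 was at 222 RPKM without and 208 RPKM with doxycycline, Cdh17 at 234 and 260 RPKM, and the apolipoprotein gene Apob at 107 and 126 RPKM. The keratin gene Krt20 was at 159 and 267 RPKM. Apoa1, which encodes the main protein of high-density lipoprotein, stood at 471 and 449 RPKM, while the neighbouring family member Apoa4 was at 353 and 79.6 RPKM. Products of 1 family thus stood on different sides of 2-fold. Vil1, Cdh17, Apob, Krt20, Apoa1 and Apoa4 were named after their values were seen.

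Lists of known targets were split in the same manner. Of 16 known HNF4 targets at 1 RPKM 12 were at least 2-fold lower with doxycycline and 0 higher, with a median of -1.74. Over all 11108 genes 5.80% were lower and 5.85% higher. Besides Fabp1 and Treh, the retinol carrier gene Rbp2 was 5.06-fold lower. Those that did not pass included Apoa1, Apob and the acyl-CoA synthetase gene Acsl5 (218 and 205 RPKM), named after their values were seen. The list shares 11 of its 17 genes with the enterocyte products (64.7% of this list, 25.0% of theirs). Of 16 known CDX2 targets 8 were lower and 0 higher, with a median of -1.02. Sucrase-isomaltase, Sis, was 4.72-fold, the mucin gene Muc2 4.77-fold, the meprin gene Mep1a 7.03-fold and the lactase gene Lct 4.09-fold lower. This list shares 7 of its 16 genes with the enterocyte products (43.8% and 15.9%) and holds Cdx1 and Hnf4a. A list of 13 genes tied to KLF4 and KLF5, which holds Klf4 and Klf5 themselves, had 5 higher and 4 lower. Some of its genes, such as Fabp1 and Olfm4, are also on other lists. The keratin gene Krt4 (0.188 and 6.54 RPKM) and Klf4 itself were among the higher ones, and the stem cell marker Olfm4, at 424 and 22.0 RPKM, and Fabp1 among the lower.

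**Figure D4:**
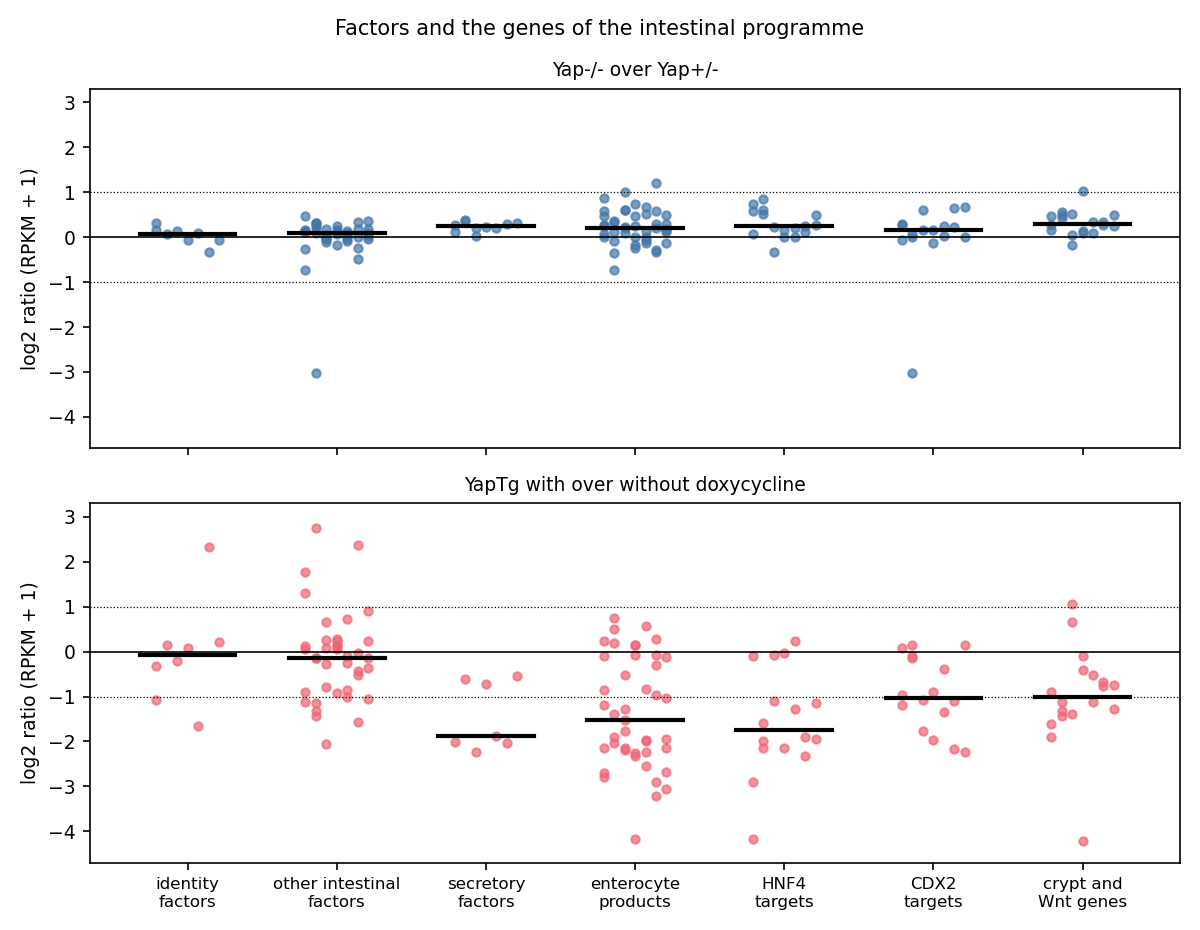
Log2 ratios of RPKM plus 1 for genes at 1 RPKM or more, by list, in the loss pair (upper panel) and the YapTg pair (lower panel); each point is a gene, black bars are list medians and dotted lines mark 2-fold. In the YapTg pair the median of the 8 identity factors lies at -0.07 and that of the enterocyte products at -1.51, while in the loss pair every list median lies within 0.31 of 0.

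Most products were slightly higher in Yap-/- than in Yap+/- organoids. Of 43 enterocyte products 33 were higher and 10 lower, with a median log2 ratio of 0.21, where the factors had 0.08 and all genes 0.05. The reference pair, with neither full loss nor induction, had a median of the same size, 0.21, with 28 products higher and 15 lower in Yap+/- and 4 and 1 of them past 2-fold. In the loss pair only G6pc (2.39-fold) and the bile acid transporter gene Slc51b (2.08-fold) passed 2-fold, both higher, against 0.336% of all genes. The HNF4 and CDX2 target lists had medians of 0.24 and 0.16. In them the carrier gene Fabp1 was 1.67-fold higher, the transthyretin gene Ttr 2.11-fold higher on the RPKM scale but short of 2-fold with the pseudocount, and Sis 1.60-fold higher. The only CDX2 target past 2-fold was lower, the homeobox gene Isx, and no HNF4 target passed. In the KLF4 and KLF5 list, with a median of -0.12, Olfm4 was 2.06-fold higher.

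Other factors of the intestine were mixed, with more of them past 2-fold lower than higher in the YapTg pair. Of 45 further listed factors and signals 39 reached 1 RPKM in the YapTg pair, with 4 higher, 8 lower and a median of -0.14. These were 10.3% and 20.5% of the 39, against 5.85% higher and 5.80% lower over all genes. The TEAD genes Tead4 and Tead1, which encode DNA-binding partners of YAP, were 15.7-fold and 4.00-fold higher. Klf6, another Krüppel-like factor, was 5.39-fold higher (interval 5.13 to 5.66) at 18.9 and 102 RPKM. The vitamin D receptor gene Vdr was 4.39-fold lower (4.20 to 4.58) at 69.3 and 15.8 RPKM. The nuclear receptor gene Pparg was also past 2-fold higher. Sox4, Myb, Foxa3, Creb3l3, Foxa2, Ppara and Nr5a2 were also past 2-fold lower. In Yap-/- organoids Isx was 24.7-fold and Pparg 1.78-fold below Yap+/-. Isx was the only 1 of 38 past 2-fold, where 0.570% of all genes were lower. Isx was at 10.6 RPKM in Yap+/-, 0.429 in Yap-/-, 72.2 without and 65.6 RPKM with doxycycline. The reference libraries thus differed 6.81-fold in Isx.

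For each of the 8 factors the listed factors with the most similar levels were found from the 4 libraries, by the distance between centred log2 values (RPKM plus 1) over 39 candidates. Klf4 lay nearest to Klf6 (distance 0.19) and then Tead1 (0.58). Hnf4g lay nearest to Vdr (0.31) and Creb3l3, a lipid-regulating factor of enterocytes (0.49). Cdx1 lay nearest to the ETS factor gene Ehf (0.39) and Foxa2 (0.50). Cdx2 lay nearest to Gata4 (0.10), Hnf4a to Klf10 (0.10) and Ihh (0.15), and Klf5 to Tcf7l2 (0.08) and Klf10 (0.11). Gata6 lay nearest to Ppargc1a (0.17) and Klf7 (0.21). Smad4 was the second nearest to Sox9 (0.21). With 4 libraries such distances only describe these values.

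Markers of neighbouring identities were set beside the factors. In the YapTg pair 5.80% of all genes were at least 2-fold lower and 5.85% higher. Secretory lineage factors were lower in induced organoids for 4 of 7 at 1 RPKM, with a median of -1.88. The goblet cell factor genes Creb3l1 (7.56-fold) and Spdef (6.84-fold) and the secretory switch Atoh1 (6.93-fold) were among the 4, and Bhlha15 was 1.68-fold lower. In the loss pair the secretory list had a median of 0.25, with Spdef 1.34-fold and Atoh1 1.26-fold higher in Yap-/- organoids. Crypt and Wnt genes had 9 of 18 lower and 1 higher with doxycycline, with a median of -1.01. Olfm4 (19.3-fold), the stem cell receptor gene Lgr5 (6.76-fold), Smoc2 (3.17-fold) and Msi1 (4.01-fold) were lower, the 4 furthest from 0 by log2 ratio with the pseudocount among genes at 5 RPKM or more. In the loss pair 17 of 18 were higher, with a median of 0.31, and the telomerase gene Tert was 1.55-fold higher. The Yap+/- library was also below the uninduced YapTg library for 17 of 18, with a median of -0.50 where the median gene stood at -0.11.

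Foregut and squamous factors stayed low. Of 14 listed, Sox2, Pax9 and Osr1 were at 0 in all 4 libraries. Only 2 reached 1 RPKM in the YapTg pair and 3 in the loss pair, and none of these passed 2-fold. Pitx1 was at 6.35 and 5.67 RPKM in the YapTg pair, and in the loss pair Pitx1 was 1.05-fold higher and Foxq1 1.26-fold lower. Of 18 gastric markers 5 reached 1 RPKM in the YapTg pair, with 1 higher and 1 lower. Over all genes 5.85% were higher and 5.80% lower. The keratin gene Krt7, which is not confined to stomach, was 11.8-fold higher at 372 RPKM, the gastrokine gene Gkn3 14.5-fold lower and the annexin gene Anxa10 1.83-fold lower. Gkn3 and Anxa10 are not confined to stomach either, at 5.72 and 27.7 RPKM in uninduced small intestinal organoids. The order of the libraries for Gkn3 was that of the crypt gene Olfm4, so its values cannot be read as stomach identity. In Yap-/- organoids Krt7 was 2.03-fold lower than in Yap+/-, short of 2-fold with the pseudocount, and Gkn3 2.40-fold higher. Listed colon markers had 5 of 8 lower and 1 higher with doxycycline, with a median of -1.07. That list is not confined to colon, since Prdx6 and Slc26a3 were at 78.7 and 22.2 RPKM in uninduced small intestinal organoids. The carbonic anhydrase gene Car4 was 18.4-fold and the chloride exchanger gene Slc26a3 8.30-fold lower, Mettl7b 3.42-fold higher and Prdx6 1.20-fold lower. In the loss pair Car4 was 2.08-fold higher on the RPKM scale and Ces1g 1.21-fold lower. Among immune markers Cd52 was 2.06-fold higher with doxycycline on the RPKM scale, at 2.79 and 5.76 RPKM.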

How the data were processed

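RNA was measured in 4 organoid libraries, grouped by the genotype or title in the labels. The library kit was Illumina TruSeq RNA, per the labels' protocols. CASAVA 1.8, FastQC, TopHat 1.4.1 and mm9 appear in the submitters' processing notes. Which counter, annotation and strand setting were used is not given in the sources used here. Values as deposited were taken as RPKM from their pattern, since no header names the unit, and 0 columns were left unused.

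RPKM were used as deposited. Library totals were solved from GENCODE M21 gene lengths: low values are whole multiples of 1 read (within 0.02). Each gene's reads follow from the fitting length nearest to GENCODE M21, so they rest on that annotation. Of genes with 1 to 20 reads, 63.9% to 67.0% had an even number, a pattern that counting both mates of a pair would give, so intervals use reads divided by 2. They are exact conditional binomial (Clopper-Pearson) 95% intervals for counting error only, since PCR copies are not independent molecules. Folds are RPKM ratios; log2 ratios add a pseudocount of 1, which understates low genes. Sox4 has 2 identifiers, and the 1 in the reference table of gene names was used. Gfi1 had no row.

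The members and all 14 gene lists were chosen with earlier results of these data known. Named genes are all members, Yap1, the 2 nearest listed factors per member, and per other list the 4 genes furthest from 0 in the YapTg pair and the 2 in the loss pair, at 5 RPKM or more; some of these are not reported here. Work was done in Python 3.11.15 with scipy 1.17.1.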

Additional observations from a re-analysis of the deposited data

How the results depend on the processing

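No paired analysis was possible because each group has 1 library, and for the same reason no library could be left out. Tried instead were a pseudocount of 0.1 or 5, a floor of 5 RPKM or none, scaling by median ratio or upper quartile, thresholds of 1.5-fold and 4-fold, and lists without their most changed member. The loss pair kept 0 of 8 identity factors past the threshold under all of them. The YapTg pair kept 3 of 8 except at 4-fold, where only Klf4 (1) passed, and without Klf4, which leaves 2. Enterocyte products in the YapTg pair gave 24 to 30 past the threshold, and 16 at 4-fold. In the loss pair their 2 became 1 with a pseudocount of 5, under either scaling or without the most changed member, 8 at 1.5-fold and 0 at 4-fold. Other intestinal factors in the YapTg pair went from 12 to 6 with a pseudocount of 5, 19 at 1.5-fold and 3 at 4-fold. In the reference pair, whose alternatives were added after the data were seen, 1 factor passed at 1.5-fold (Cdx1). There the genes past 2-fold were 121 higher and 79 lower as deposited, 173 and 60 after median-ratio scaling and 159 and 63 after upper-quartile scaling, and the median gene moved from -0.11 to 0.02 and -0.02. Of 18 log2 ratios (8 factors and Yap1 in both pairs), 0 changed sign or call under either other pseudocount or scaling. Per setting 0 to 7 lay outside the counting interval of the RPKM fold. Those intervals carry no pseudocount, and the main ratios of Klf4 in the YapTg pair and of Yap1 in both pairs already lay outside them. These counts therefore do not measure the settings alone. The Cdx1 ratio in the YapTg pair came closest to 2-fold, at -1.01 with a pseudocount of 5. Counting error is small at this depth, and the spread between organoid cultures is unknown.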

Other observations

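The wider families of the identity factors were looked up by symbol, a choice made after the data were seen. Of 17 Klf genes 10 reached 1 RPKM in the YapTg pair, and Klf4 and Klf6 were the 2 past 2-fold, both higher. Over all genes 5.85% were higher and 5.80% lower in that pair. Klf3 was at 35.8 RPKM without and 59.4 RPKM with doxycycline, Klf9 at 4.21 and 6.48 RPKM, and Klf16 at 7.82 and 12.0 RPKM. In the loss pair 0 of 10 passed 2-fold, with Klf6 at 15.2 RPKM in Yap-/- organoids against 21.8 RPKM in Yap+/-. Of 18 Sox genes 4 reached 1 RPKM, and Sox4, a factor of progenitor cells, was 3.40-fold lower with doxycycline at 14.9 and 4.40 RPKM.

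Among 6 Gata genes Gata4, Gata5 and Gata6 stayed within 2-fold in the YapTg pair, with Gata4 at 34.6 and 41.4 RPKM and Gata5 at 12.7 and 13.3 RPKM. Gata3, a factor best known from T cells and from skin and breast epithelium, had 0 reads without and 1501 reads (5.01 RPKM) with doxycycline. Against an assumed 3 reads in the uninduced library Gata3 would be 299-fold higher. Reads were not halved for mates there, so 299-fold is not a firm lower bound. It had 2 reads in Yap+/- and 0 in Yap-/- organoids. The T cell genes Cd3e and Cd3g were at 0.124 and 0.331 RPKM without and 0.130 and 0.321 RPKM with doxycycline. Cd8a was at 0.391 RPKM without and 0.204 RPKM with doxycycline. Of the 12 immune markers 4 reached 1 RPKM in the YapTg pair, with 2 higher and 2 lower. Which cells held the Gata3 reads was not tested.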
